A study of Mus musculus with 12 samples.

Results

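The genes described here are 10 core components of Notch signaling, taken by gene symbol from the RSEM tables of the series: the receptors Notch1, Notch2, Notch3 and Notch4, the ligands Jag1, Jag2, Dll1 and Dll4, and the target genes Hes1 and Hey1. They are 10 of the 52550 genes in the tables, and all 10 passed the filter on low counts. RNA was sequenced from D2A1 and D2.OR, mouse mammary tumor cell lines that were each derived from a D2 hyperplastic alveolar nodule tumor of a BALB/c mouse. D2.OR cells stop dividing in three-dimensional culture and serve as a model of tumor dormancy, whereas D2A1 cells proliferate there. Each line was grown either in 2D, on plastic, or in 3D, on top of growth-factor-reduced Matrigel, with wells of a line pooled for RNA. Apart from the medium supplements given below, no drug treatment and no engineered allele were named for any group. The study's methods give 2 media for 2D culture: DMEM high glucose in the section on cell culture, to which the account of these libraries refers for seeding, and the medium of the 3D assay in the section on dormancy assays. The medium of the 3D assay contained horse serum, hydrocortisone, cholera toxin and insulin, whereas the DMEM contained fetal bovine serum. Whether the medium differed between the cultures of these libraries could not be settled from the methods. Its part in the differences between cultures was not tested. The 4 groups, D2A1 in 2D, D2A1 in 3D, D2.OR in 2D and D2.OR in 3D, had 3 replicates each, 12 libraries in all, and replicates of the same number shared a batch and a sequencing lane. Both lines divide in 2D, so the 2D comparison is one between dividing cells. Each behavior in 3D was represented by 1 line, so a property of the lines that can or cannot become dormant and any other difference between these 2 lines cannot be told apart. The labels do not say whether the replicates of these libraries came from separate cultures. The study names batch as the replicate and calls its repeats biological in a general statement. The p-values measure the spread between these libraries.

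Notch proteins are single-pass receptors that are activated by ligands of the Jagged and Delta-like families on neighboring cells. Ligand binding exposes the receptor to cleavage by ADAM proteases and then by the gamma-secretase complex, and the released intracellular domain enters the nucleus and joins the DNA-binding protein Rbpj and Mastermind coactivators. This complex turns on genes of the Hes and Hey families, which encode transcriptional repressors, and Nrarp, which encodes a feedback inhibitor of the complex. In the mammary gland Notch signaling takes part in luminal fate decisions. Notch4 was first described in mouse mammary tumors as Int3, a common integration site of mouse mammary tumor virus from which shortened transcripts of the transmembrane and intracellular part are made.

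Libraries held 47589611 to 73325069 expected counts (median 61747126). Levels are given in TPM, a scale corrected for gene length on which every library has the same total, and differences between groups as log2 fold changes from a negative binomial fit of the expected counts (edgeR quasi-likelihood) with their standard error (SE) and a p-value adjusted over the 16823 genes tested. The labelled cell type was checked against marker genes. Krt18, a keratin of luminal epithelium, was present in every library (92.7 to 666 TPM), Krt8 was at 0.78 to 2.31 TPM in D2A1 and at 227 to 1022 TPM in D2.OR, and Epcam and Cdh1 were at or below 0.28 TPM in every D2A1 library. In D2.OR, Epcam was at 1.54 to 5.42 TPM. Cdh1 was there at 22.2 to 183 TPM in 2D and 8.93 to 61.3 TPM in 3D, highest in replicate 1 of each culture. Krt19 was at or below 0.14 TPM in every library, so the luminal sum below rests mostly on Krt8 and Krt18. The basal keratin Krt5 was at or below 0.03 TPM throughout, and the 4 basal markers summed to 0.53 to 2.52 TPM in D2A1 and 3.61 to 11.25 TPM in D2.OR. The mesenchymal gene Vim was at 733 to 3138 TPM in D2A1 and 2831 to 5313 TPM in D2.OR, Col1a1 was at 0.26 to 3.33 and 7.65 to 57.2 TPM, and Pdgfra was at 14.2 to 33.9 and 59.4 to 149.9 TPM. The 6 mesenchymal and fibroblast markers summed to 789 to 3172 TPM in D2A1 and 2948 to 5633 TPM in D2.OR. The 5 endothelial markers, relevant because Notch4 and Dll4 are well known in endothelium, summed to 0.1 to 0.63 TPM, with Cdh5 at or below 0.02 TPM. The summed luminal markers were 94.0 to 297 TPM in D2A1 and 416 to 1714 TPM in D2.OR, without overlap. Within D2.OR they were 1164 to 1714 TPM in 2D and 416 to 875 TPM in 3D, also without overlap, with Krt8 at 700.2 to 1022 TPM and 227 to 527 TPM. The luminal and basal sums, Col1a1 and Pdgfra thus moved with the line as the Notch genes below did, and their part in the results was not tested. The 2 adipocyte markers, Plin1 and Adipoq, summed to 0 to 0.1 TPM in D2A1, to 0.15 to 1.61 TPM in D2.OR in 2D and to 6.49 to 77.0 TPM in D2.OR in 3D, where Plin1 was at 6.33, 75.0 and 21.5 TPM, so that they moved with the line and, like the luminal sum, with culture in D2.OR. Of the 5 blood cell markers Cd68 was at 5.65 to 32.1 TPM in D2A1, highest in 2D, and 2.22 to 6.75 TPM in D2.OR, and the other 4, Ptprc among them, were at or below 0.16 TPM in every library.

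Most of the 10 genes were far higher in D2.OR than in D2A1, in either culture. In 2D, 7 genes were higher in D2.OR, none was lower and 3 did not pass the test, against a background of 49.8% of all tested genes called in either direction and 25.4% called higher. In 3D, 8 genes were higher, none was lower and 2 did not pass, with 53.8% of all genes called in either direction and 27.7% called higher. The median log2 difference over the 10 genes was 3.56 in 2D and 3.78 in 3D, against -0.003 and 0.001 over all genes tested. In these bulk samples, fewer cells of a type and less RNA per cell cannot be told apart.

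**Figure D1:**
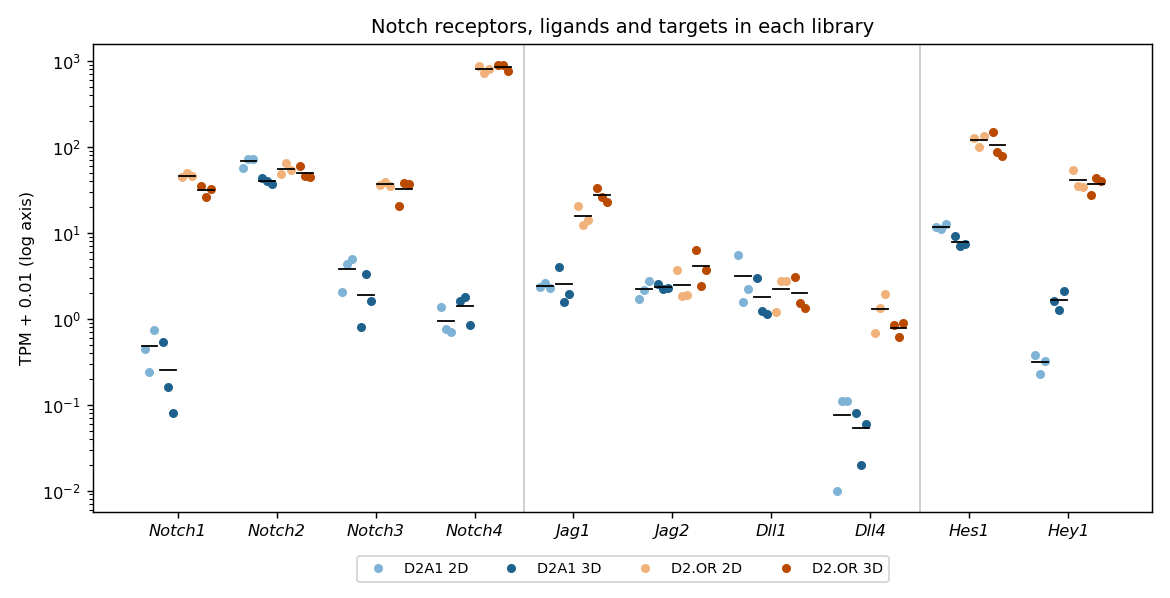
TPM plus 0.01 on a log axis for each of the 10 genes (receptors, ligands and targets from left to right); each point is 1 library, colors give the 4 groups and black bars the group means. Notch4 lies at 724 to 896 TPM in the 6 D2.OR libraries and at 0.7 to 1.79 TPM in the 6 D2A1 libraries, whereas Notch2 lies at 36.8 to 73.4 TPM in all 12.

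On the TPM scale, Notch4 had the highest level of the 10 genes in D2.OR, in either culture. Its level in D2A1 was 1.36, 0.75 and 0.7 TPM in 2D and 1.61, 1.79 and 0.84 TPM in 3D, and in D2.OR it was 882, 724 and 816 TPM in 2D and 891, 896 and 763 TPM in 3D. The lines did not overlap, and within each line the cultures did. Notch4 was 321-fold higher in D2.OR in 2D (log2 8.33, SE 0.39, adjusted p = 7.06e-07, edgeR) and 195-fold higher in 3D (log2 7.61, SE 0.37, adjusted p = 9.54e-07), in 3 of 3 replicates each time. By mean TPM it was gene 182 of 52550 in D2.OR in 2D and gene 171 in 3D, whereas it was gene 12811 and gene 12146 in D2A1. These ranks use the length that RSEM assigned to Notch4, described below, and were not redone at the full transcript length. The counts behind these levels were 82 to 393 in D2A1 and 31259 to 50493 in D2.OR.

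The length that RSEM assigned to Notch4 was also shorter in D2.OR. RSEM reports for each gene and library a mean transcript length weighted by the abundance of its annotated transcripts, and for Notch4 this was 3029 to 6007 bases in D2A1 and 1369 to 1526 bases in D2.OR. The D2.OR mean was 0.347 of the D2A1 mean, the second strongest shortening among 12067 genes whose length varied, for which the median ratio was 1. Ranges of the lines failed to overlap in 4.99% of those genes, and in 2.52% they did so with the shorter length in D2.OR. Among the other 9 members, 8 had a length that varied and overlapped between the lines, and Notch3 has only 1 annotated transcript. Notch1 went the other way, with a D2.OR mean 1.73 of the D2A1 mean. That was rank 12023 of 12067, counted from the strongest shortening. Its D2A1 lengths rest on 18.4 to 102.8 counts. With 82 to 393 counts, the Notch4 lengths in D2A1 rest on few reads. These lengths are estimates over the annotated transcripts, and the transcripts themselves were not measured from reads.

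**Figure D2:**
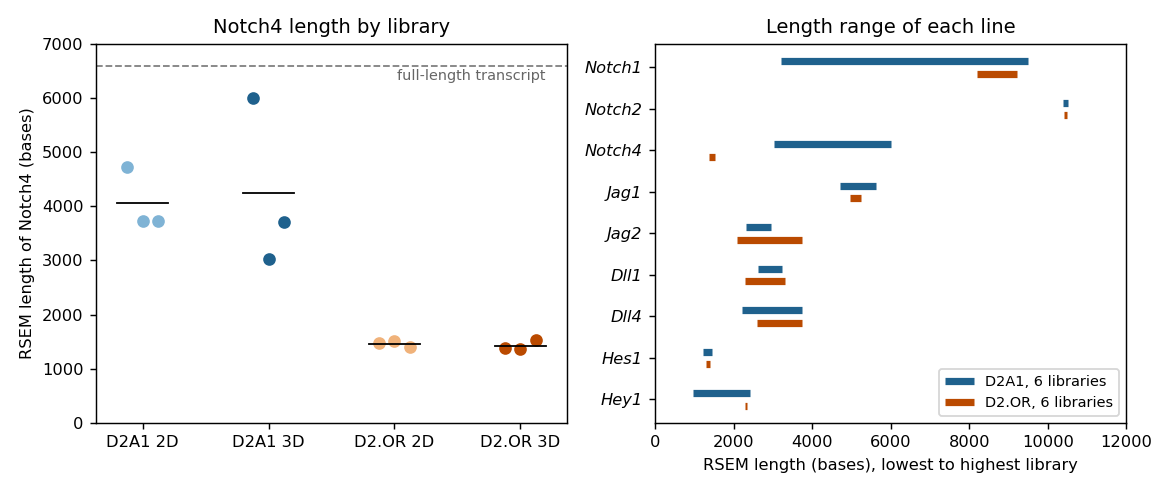
Left, RSEM length of Notch4 in bases for each library (points) with group means (black bars) and the length of the full-length transcript (dashed line). Right, lowest to highest length over the 6 libraries of each line for the 9 members with a variable length; only the Notch4 ranges, 3029 to 6007 bases in D2A1 and 1369 to 1526 bases in D2.OR, are apart.

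Notch4 lies on chromosome 17 (GRCm38, 34564268 to 34588503, plus strand) and has 12 annotated transcripts, of which 2 are long (6591 bases, the full-length coding transcript with 30 exons, and 6380 bases) and 10 are short (247 to 804 bases). From the lengths, the long transcripts made up between 9.77% and 20.85% of the Notch4 molecules that RSEM assigned in the D2.OR libraries and between 38.45% and 93.92% in the D2A1 libraries. Of the 10 short transcripts, 7 start past 80% of the gene, in exon 23 or a later exon of the full-length transcript. The longest of them starts at position 4359 of the full-length transcript, and its first 120 bases (chr17:34583882-34584001, plus strand, GENCODE M21), which are coding in both transcripts, are shown because the earliest of these 7 annotated 3′ transcripts begin there; 2 of the 7 share this start and the other 5 start at 83.8% to 94.0% of the gene.
Notch4, start of the longest short transcript: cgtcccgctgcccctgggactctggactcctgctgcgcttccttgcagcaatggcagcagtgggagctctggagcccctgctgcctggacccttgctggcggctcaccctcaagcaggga
The other 3 short transcripts start at 0.1%, 3.6% and 56.7% of the gene. Both transcripts with the printed start are annotated as nonsense-mediated decay, as is the long transcript of 6380 bases. The other short ones are annotated as retained introns or processed transcripts, and no short one is annotated as protein coding. The gene-level values do not tell which short transcript, if any, was present. A TPM value rises when the assigned length falls. With every library set to the length of the full-length transcript, Notch4 was at 150 to 177 TPM in D2.OR and at 0.387 to 1.46 TPM in D2A1, still without overlap. The log2 fold changes rest on counts and do not use this length.

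Notch1 (chromosome 2, 26457903 to 26516663, minus strand) was nearly absent from D2A1. It was at 0.44, 0.23 and 0.73 TPM in D2A1 in 2D, at 0.52, 0.15 and 0.07 TPM in D2A1 in 3D, at 44.8, 49.5 and 45.5 TPM in D2.OR in 2D and at 35.3, 25.9 and 32.3 TPM in D2.OR in 3D. The lines did not overlap, and all 3 D2.OR libraries in 3D lay below those in 2D. The difference between the lines was 258-fold in 2D (log2 8.01, SE 0.47, adjusted p = 2.68e-06, edgeR) and 240-fold in 3D (log2 7.90, SE 0.48, adjusted p = 2.93e-06). The decrease of Notch1 in D2.OR in 3D did not pass the test (log2 -0.63, SE 0.34, adjusted p = 0.372), although its direction was shared by 3 of 3 replicates. It passed with the 6 D2.OR libraries fitted alone (adjusted p = 0.0359), without replicate 1 (0.0227) and without replicate 1 of D2A1 in 3D (0.049).

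Notch3 (chromosome 17, 32120820 to 32166880, minus strand) followed the same order of the lines at a smaller distance. It was at 2.04, 4.37 and 4.97 TPM in D2A1 in 2D and at 0.8, 3.29 and 1.61 TPM in 3D, and at 35.8, 39.0 and 35.5 TPM in D2.OR in 2D and 20.7, 38.0 and 37.6 TPM in 3D. The lines were apart in every library, and replicate 1 was the lowest library in both 3D groups. Notch3 was 11.7-fold higher in D2.OR in 2D (log2 3.55, SE 0.36, adjusted p = 6.62e-05, edgeR) and 17.8-fold higher in 3D (log2 4.15, SE 0.37, adjusted p = 2.87e-05).

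Notch2 (chromosome 3, 98013527 to 98150361, plus strand) was present in every group. It was at 57.6, 72.9 and 73.4 TPM in D2A1 in 2D, at 43.1, 40.3 and 36.8 TPM in D2A1 in 3D, at 48.9, 65.4 and 53.4 TPM in D2.OR in 2D and at 60.4, 45.6 and 44.5 TPM in D2.OR in 3D. The lines overlapped in 2D, and in 3D the 3 D2A1 libraries lay just below the D2.OR libraries. The difference between the lines did not pass the test in 2D (log2 -0.15, SE 0.14, adjusted p = 0.41, edgeR) or in 3D (log2 0.30, SE 0.14, adjusted p = 0.108).

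The receptor pool differed in makeup. Notch2 held 93.0% ± 0.91 (SD, n = 3) of the summed receptor TPM in D2A1 in 2D and 91.9% ± 2.94 in 3D, whereas Notch4 held 85.2% ± 2.44 in D2.OR in 2D and 88.2% ± 1.09 in 3D. The summed receptor TPM was 73.2 ± 10.1 and 43.6 ± 3.78 in D2A1 and 947 ± 67.0 and 963 ± 74.2 in D2.OR, in 2D and 3D. These sums use the length that RSEM assigned to Notch4. With Notch4 at the full transcript length its share in D2.OR was 53.6% ± 4.16 in 2D and 59.0% ± 1.02 in 3D, and Notch2 took 18.6% and 18.1%.

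**Figure D3:**
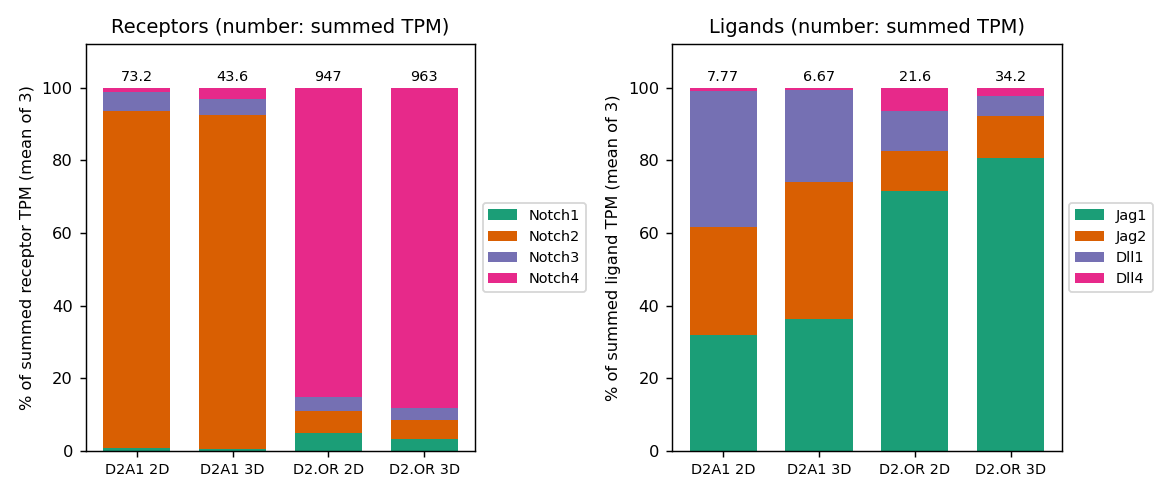
Share of each receptor (left) and each ligand (right) in the summed TPM of its class, in percent, as the mean of 3 libraries per group; the number above a bar is the mean summed TPM. Notch2 fills 93.0% and 91.9% of the receptor bars of D2A1, and Notch4 fills 85.2% and 88.2% of those of D2.OR.

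The promoters are shown for the receptors farthest apart between the lines, Notch4 and Notch1, and for Notch2, which did not differ. They are RefSeq sequences (GRCm38.p6) from 250 bases before to 50 bases after the annotated start, and capitals mark matches of the Rbpj motif GTGGGAA or the E-box CACGTG on either strand, of which these 3 hold none.
Notch4 (chr17:34564045-34564344, plus strand): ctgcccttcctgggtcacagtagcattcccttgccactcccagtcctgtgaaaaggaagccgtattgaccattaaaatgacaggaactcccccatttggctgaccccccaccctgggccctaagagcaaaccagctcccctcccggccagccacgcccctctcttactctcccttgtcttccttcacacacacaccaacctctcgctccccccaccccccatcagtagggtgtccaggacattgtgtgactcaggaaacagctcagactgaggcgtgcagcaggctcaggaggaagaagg
Notch1 (chr2:26503773-26504072, minus strand): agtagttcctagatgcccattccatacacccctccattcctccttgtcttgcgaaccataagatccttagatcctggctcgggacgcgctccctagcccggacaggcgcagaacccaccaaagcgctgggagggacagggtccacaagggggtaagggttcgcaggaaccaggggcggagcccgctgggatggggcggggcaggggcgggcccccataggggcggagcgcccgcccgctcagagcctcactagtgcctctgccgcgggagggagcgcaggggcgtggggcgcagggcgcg
Notch2 (chr3:98013288-98013587, plus strand): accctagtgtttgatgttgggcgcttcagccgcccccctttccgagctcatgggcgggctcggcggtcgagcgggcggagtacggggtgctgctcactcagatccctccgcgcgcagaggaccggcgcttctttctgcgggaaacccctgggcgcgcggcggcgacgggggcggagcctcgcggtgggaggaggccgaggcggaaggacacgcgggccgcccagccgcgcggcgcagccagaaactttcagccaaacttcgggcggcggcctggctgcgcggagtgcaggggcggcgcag
The base composition differed, with 58.3% G and C in the Notch4 promoter, 68.3% in Notch1 and 73.0% in Notch2. Promoters were found for 8 of the 10 members, those of Hes1 and Hey1 not among them, and none of the 8 held either motif in this window, which was present in 6.38% (Rbpj motif) and 7.15% (E-box) of 32851 promoters of the same length. Among the further targets searched, the Hey2 promoter held the Rbpj motif on both strands and is shown for that reason.
Hey2 (chr10:30842734-30843033, minus strand): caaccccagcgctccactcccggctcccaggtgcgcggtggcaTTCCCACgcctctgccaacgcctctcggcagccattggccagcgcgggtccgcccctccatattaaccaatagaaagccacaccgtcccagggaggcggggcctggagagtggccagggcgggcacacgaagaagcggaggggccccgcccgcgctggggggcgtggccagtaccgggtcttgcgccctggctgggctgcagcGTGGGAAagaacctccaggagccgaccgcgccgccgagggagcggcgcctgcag
The matches begin 4 bases and 207 bases before the start site. The Nrarp promoter held an E-box that begins 108 bases before the start site. A match or its absence is a description of these letters only.

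Jag1 (chromosome 2, 137081456 to 137116644, minus strand), the ligand that is mutated in Alagille syndrome in humans, was the main ligand of D2.OR. It was at 2.35, 2.62 and 2.25 TPM in D2A1 in 2D and at 4.04, 1.55 and 1.93 TPM in 3D, and at 20.4, 12.3 and 14.2 TPM in D2.OR in 2D and at 32.9, 26.1 and 23.1 TPM in 3D. The D2.OR libraries lay above all D2A1 libraries, and within D2.OR those in 3D lay above those in 2D. Jag1 was 6.43-fold higher in D2.OR in 2D (log2 2.69, SE 0.23, adjusted p = 2.5e-05, edgeR) and 12.1-fold higher in 3D (log2 3.59, SE 0.24, adjusted p = 5.32e-06). The difference between 3D and 2D in D2.OR was 1.7-fold (log2 0.77, SE 0.22), in the same direction in 3 of 3 replicates, and did not pass over all genes (unadjusted p = 0.00606, adjusted p = 0.117). It passed in 4 of 23 alternative fits: DESeq2 (adjusted p = 0.0231), the 6 D2.OR libraries alone (0.0408), without replicate 1 (0.0192) and without replicate 1 of D2A1 in 2D (0.0482).

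The other ligands were low. Dll4, a Delta-like ligand best known from blood vessels, had 0 to 13 counts in the D2A1 libraries and 82 to 219 in the D2.OR libraries. It was at 0, 0.1 and 0.1 TPM in D2A1 in 2D and 0.07, 0.01 and 0.05 TPM in 3D, against 0.67, 1.31 and 1.94 TPM in D2.OR in 2D and 0.83, 0.6 and 0.88 TPM in 3D. The lines did not overlap (log2 4.13, SE 0.70, adjusted p = 0.0012 in 2D; log2 3.95, SE 0.71, adjusted p = 0.00152 in 3D, edgeR), and the endothelial markers above were near 0 in the same libraries. Jag2 was at 1.68 to 2.71 TPM in D2A1 and at 1.83 to 6.27 TPM in D2.OR, and the lines overlapped. Its difference passed only in 3D (2D, log2 0.35, SE 0.23, adjusted p = 0.249; 3D, log2 0.74, SE 0.23, adjusted p = 0.0237, edgeR), and the 3D call was kept in 14 of 23 alternative fits, with adjusted p up to 0.141. It was lost with limma, without replicate 2 or 3, and without any 3D library other than replicate 3 of D2.OR. Dll1 was at 1.12 to 5.55 TPM, with the lines overlapping in both cultures, and did not pass in 2D (log2 -0.27, SE 0.53, adjusted p = 0.698) or 3D (log2 0.17, SE 0.50, adjusted p = 0.796). Its highest library was D2A1 in 2D of replicate 1 and its second lowest was D2.OR in 2D of the same replicate, and without replicate 1 the 2D difference turned to log2 0.57.

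Jag1 thus held 71.6% ± 6.24 (SD, n = 3) of the summed ligand TPM in D2.OR in 2D and 80.5% ± 4.50 in 3D. In D2A1 the pool was smaller and shared: in 2D, Dll1 held 37.5% ± 18.0, Jag1 32.0% ± 8.07 and Jag2 29.5% ± 10.5 of 7.77 ± 1.62 TPM. In 3D the order of the means was another, with Jag2 at 37.8% ± 9.88, Jag1 at 36.3% ± 5.56 and Dll1 at 25.3% ± 5.06 of 6.67 ± 2.56 TPM. The Dll1 share in 2D ranged from 24.1% to 57.9%, with the highest value in replicate 1. The summed ligand TPM in D2.OR was 21.6 ± 3.94 in 2D and 34.2 ± 7.74 in 3D.

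Both target genes were higher in D2.OR. Hes1 (chromosome 16, 30064384 to 30067796, plus strand), a repressor of the basic helix-loop-helix class, was at 11.8, 11 and 12.7 TPM in D2A1 in 2D and 9.3, 6.96 and 7.46 TPM in 3D, and at 128, 99.5 and 136 TPM in D2.OR in 2D and 151, 87.6 and 77.8 TPM in 3D. The lines did not overlap, and within D2A1 all 3 libraries in 3D lay below those in 2D. Hes1 was 11.9-fold higher in D2.OR in 2D (log2 3.57, SE 0.17, adjusted p = 8.73e-07, edgeR) and 12.2-fold higher in 3D (log2 3.60, SE 0.17, adjusted p = 8.41e-07).

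Hey1 (chromosome 3, 8663359 to 8667256, minus strand), a repressor related to Hes1, was the member with the largest difference between cultures. It was at 0.37, 0.22 and 0.31 TPM in D2A1 in 2D, at 1.61, 1.25 and 2.07 TPM in D2A1 in 3D, at 53.7, 35.0 and 33.9 TPM in D2.OR in 2D and at 27.8, 44.0 and 40.5 TPM in D2.OR in 3D. All 3 D2A1 libraries in 3D lay above those in 2D, and all 6 D2.OR libraries lay above both, with the D2.OR cultures overlapping. Hey1 was 181-fold higher in D2.OR in 2D (log2 7.5, SE 0.48, adjusted p = 4.48e-06, edgeR) and 22.8-fold higher in 3D (log2 4.51, SE 0.40, adjusted p = 2.62e-05).

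**Figure D4:**
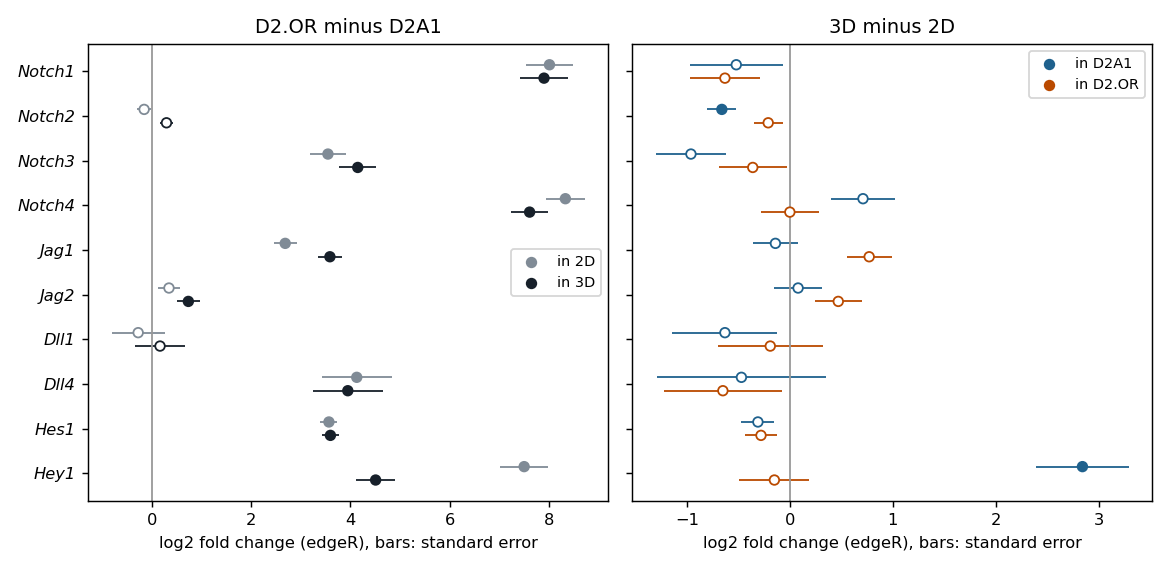
Log2 fold changes from edgeR with standard errors for each member, D2.OR minus D2A1 (left, in 2D and 3D) and 3D minus 2D (right, in D2A1 and D2.OR); filled points passed an adjusted p of 0.05. On the left 7 points in 2D and 8 in 3D are filled, all to the right of 0; on the right only Notch2 (-0.66) and Hey1 (2.84) in D2A1 are filled.

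Culture moved few of the genes. In D2A1, Hey1 was higher in 3D and Notch2 lower, 2 of 10 members against 3.48% of all tested genes called, 1.37% higher and 2.12% lower. Hey1 rose 7.15-fold (log2 2.84, SE 0.45, adjusted p = 0.0282, edgeR), from 24, 6 and 21 counts to 152, 113 and 185, and the log2 differences within replicates 1, 2 and 3 were 2.08, 3.77 and 2.78. Notch2 fell by 0.66 on the log2 scale (SE 0.14, adjusted p = 0.0472), by 0.40, 0.69 and 0.85 within the replicates. Neither passed when replicate 2 or replicate 3 was left out or when the 6 D2A1 libraries were fitted alone, and without replicate 1 the count of members called was 6, Notch1, Notch2, Notch3, Notch4, Dll4 and Hey1, in a fit that called 36.3% of all tested genes. The fit without replicate 1 also called more genes between cultures in D2.OR (8.38%) and for the interaction of line and culture (17.8%). The Hey1 call was also lost without replicate 2 or 3 of either D2A1 group (adjusted p = 0.111 to 0.157), replicate 2 of D2.OR in 2D (0.0577) or replicate 3 of D2.OR in 3D (0.0528), where its log2 difference was 2.40 to 2.97. The Notch2 call was lost without each of these, without replicates 1 and 3 of D2.OR in 2D or replicate 2 of D2.OR in 3D, and with library totals (adjusted p = 0.0504 to 0.228). The direction of Hey1 and Notch2 was kept in all 23 alternative fits, between 1.01 and 3.27 for Hey1 and between -0.78 and -0.55 for Notch2. Without the replicate block only Hey1 passed.

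Of the other members in D2A1, Notch3 (log2 -0.96, SE 0.34, adjusted p = 0.0953, edgeR) and Notch4 (log2 0.71, SE 0.31, adjusted p = 0.151) did not pass over all genes. Notch3 passed with DESeq2 (adjusted p = 0.0265) and without replicate 1 (0.0448), and Notch4 without replicate 1 (0.0305) and without replicate 1 of D2A1 in 2D (0.0438). The other 6 members had adjusted p-values between 0.214 and 0.852. Notch1 shows how replicate 1 stood apart in this comparison: its log2 difference was 0.76 in replicate 1 and -1.44 and -1.49 in replicates 2 and 3, and it passed without replicate 1 (log2 -1.54, adjusted p = 0.0032) and without replicate 1 of D2A1 in 3D (log2 -1.46, adjusted p = 0.0081). In D2.OR, none of the 10 members passed, against 1.62% of all tested genes, 0.838% higher and 0.785% lower. At an unadjusted p under 0.05 there was 1 member, Jag1, against 17.6% of all tested genes. DESeq2 called it, as it did 7.59% of all genes, and limma did not. Notch4, at 724 to 882 TPM in 2D and 763 to 896 TPM in 3D, had overlapping cultures (SE 0.28, adjusted p = 0.997), and Hes1 had a log2 difference of -0.28 (SE 0.16, adjusted p = 0.388).

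Whether culture acted differently in the lines was tested as an interaction. No member passed, and 0.0238% of all tested genes did, 0.0178% with a higher and 0.00594% with a lower value in D2.OR. Hey1 came nearest, with a 3D effect that was lower in D2.OR by 2.99 on the log2 scale (log2 -2.99, SE 0.57, unadjusted p = 5e-04, adjusted p = 0.0892, edgeR), in the same direction in 3 of 3 replicates (-3.19, -3.46 and -2.53), and it passed in 5 of 22 alternative fits: DESeq2 (adjusted p = 7.66e-05), no filter (0.0329), without replicate 1 (0.00966) and without replicate 1 of D2A1 in 2D (0.0144) or in 3D (0.0408). At an unadjusted p under 0.05 there were 2 members, Hey1 and Jag1, against 17.8% of all tested genes. DESeq2 called Hey1, as it did 6.27% of all genes, and limma none. These shares are near the background. For Jag1 the interaction was 0.91 (SE 0.31, adjusted p = 0.198), with replicate 1 at -0.08 and replicates 2 and 3 at 1.90 and 0.91. It passed in 2 of 22 alternative fits, without replicate 1 (log2 1.40, adjusted p = 0.0104) and without replicate 1 of D2A1 in 2D (log2 1.16, adjusted p = 0.0262).

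The rest of the pathway was taken as a list of 54 further genes, of which 46 were tested. In 2D, 16 of the 46 were higher in D2.OR and 9 lower, against 25.4% and 24.4% of all tested genes, and in 3D 23 were higher and 8 lower, against 27.7% and 26.1%. The median log2 difference of the list was 0.17 in 2D and 0.35 in 3D.

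Of the 8 further target genes, 4 were tested and 3 were higher in D2.OR in each culture, against 25.4% of all genes in 2D and 27.7% in 3D. They were Nrarp, Hey2 and Hes7 in 2D and Nrarp, Hey2 and Hes6 in 3D. Nrarp, the feedback inhibitor, was at 0.56, 0.88 and 1.09 TPM in D2A1 in 2D, at 1.27, 2.46 and 2.22 TPM in D2A1 in 3D, at 33.1, 32.0 and 38.3 TPM in D2.OR in 2D and at 28.1, 36.5 and 41.8 TPM in D2.OR in 3D. As for Hey1, the D2A1 libraries in 3D lay above those in 2D, all D2.OR libraries lay above both, and the D2.OR cultures overlapped. Nrarp was 46.3-fold higher in D2.OR in 2D (log2 5.53, SE 0.23, adjusted p = 3.22e-07, edgeR) and 17.7-fold higher in 3D (log2 4.15, SE 0.21, adjusted p = 1.02e-06). It rose 2.53-fold in D2A1 in 3D (log2 1.34, SE 0.20, adjusted p = 0.025), a call lost without the replicate block (adjusted p = 0.0673), in the 6 D2A1 libraries alone (0.157), without replicate 2 (0.516) or 3 (0.538), without replicate 2 or 3 of either D2A1 group (0.0942 to 0.145) and without replicate 3 of D2.OR in 3D (0.0501). Its interaction did not pass (log2 -1.39, SE 0.27, adjusted p = 0.0892) but did with DESeq2 (0.00197), without replicate 1 (0.00904) and without replicate 1 of D2A1 in 2D (0.0255) or 3D (0.0202).

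Hey2, a close relative of Hey1, was at 0.98 to 2.28 TPM in D2A1 and 3.01 to 10.4 TPM in D2.OR and was higher in D2.OR in both cultures (2D, log2 1.17, SE 0.35, adjusted p = 0.0197; 3D, log2 2.64, SE 0.36, adjusted p = 0.000309, edgeR; interaction, log2 1.46, SE 0.48, adjusted p = 0.186). The 2D differences within replicates 1, 2 and 3 were 2.26, 0.91 and 0.57, and the 2D call was lost in 4 of 23 alternative fits: the 6 libraries alone (adjusted p = 0.0603), without replicate 2 (0.113) and without replicate 1 (0.0655) or 2 (0.0538) of D2.OR in 2D. The interaction passed without replicate 1 (0.0204) and without replicate 1 of D2A1 in 2D (0.0115). Hes7, another repressor of the Hes family, was at 0.34 to 0.78 TPM in D2A1 and 0.92 to 1.18 TPM in D2.OR. It passed in 2D (log2 1.11, SE 0.30, adjusted p = 0.0128) and not in 3D (log2 0.70, SE 0.29, adjusted p = 0.0696; limma, 0.0262 and 0.0456 at pseudocounts of 1 and 0.1), and the 2D call was lost without replicate 2 (0.113) or 3 (0.0674), replicate 2 of D2A1 in 2D (0.056) or replicate 1 of D2.OR in 2D (0.0578). Hes6, whose product counteracts Hes1, was at 25.4 to 90.6 TPM in all libraries and was higher in D2.OR only in the 3D test (log2 0.91, SE 0.22, adjusted p = 0.00637; 2D, log2 -0.29, SE 0.21, adjusted p = 0.297), a call lost without replicate 2 (adjusted p = 0.0992). Its interaction did not pass (log2 1.20, SE 0.31, adjusted p = 0.141) but did with DESeq2 (0.0125), without replicate 1 (0.00552) and without replicate 1 of D2A1 in 2D (0.0205) or 3D (0.0111). The 4 targets that were not tested in the main fit, Hes2, Hes3, Hes5 and Heyl, were at or below 0.21 TPM in every library. Heyl was tested in 12 alternative edgeR fits. It was called higher in D2.OR in 4 of them in 2D (adjusted p = 0.0219 to 0.184 over the 12) and in 11 in 3D (0.00275 to 0.0549).

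Of 7 genes of the nuclear complex, 2 were higher and 2 lower in D2.OR in each culture, shares near those of all tested genes (25.4% higher and 24.4% lower in 2D, 27.7% and 26.1% in 3D). Rbpj, the DNA-binding partner of all Notch receptors, was lower in D2.OR, at 91.7, 168 and 139 TPM in D2A1 in 2D, 86.7, 64.4 and 57.9 TPM in D2A1 in 3D, 30.6, 41.1 and 44.5 TPM in D2.OR in 2D and 39.1, 41.7 and 34.4 TPM in D2.OR in 3D. Every D2.OR library lay below every D2A1 library (2D, log2 -1.66, SE 0.23, adjusted p = 0.000403; 3D, log2 -0.85, SE 0.23, adjusted p = 0.0114, edgeR). Maml2, a Mastermind coactivator, was higher in D2.OR (log2 2.02, SE 0.31, adjusted p = 0.000746 in 2D; log2 2.16, SE 0.31, adjusted p = 0.000443 in 3D), and Maml3 was lower (log2 -0.52, SE 0.17, adjusted p = 0.0323; log2 -0.75, SE 0.17, adjusted p = 0.00585). The Maml3 call in 2D was lost in 7 of 23 alternative fits, without replicate 1, 2 or 3, without replicate 2 or 3 of D2A1 in 2D and without replicate 1 or 3 of D2.OR in 2D (adjusted p = 0.0512 to 0.144). Without replicate 2 the 3D calls of Maml3 (0.0785) and Rbpj (0.0699) were lost as well. Rbpjl, a paralog of Rbpj, was called higher at levels of 0.12 to 0.83 TPM in D2.OR. In 2D this was lost with limma at a pseudocount of 1 (0.108) and without replicate 2 (0.0744). Of 8 corepressors, 3 were higher in 2D and 5 in 3D (25.4% and 27.7% of all tested genes), and none was lower, with Tle2, a Groucho-type corepressor, higher by log2 2.08 (SE 0.35, adjusted p = 0.000987) in 3D.

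Among 10 genes of receptor cleavage, 5 were higher in D2.OR in 2D, and 7 were higher and 1 lower in 3D (all tested genes, 25.4% higher in 2D and 27.7% higher and 26.1% lower in 3D), with a median log2 difference of 0.31 and 0.52. Adam10, the protease of the ligand-induced cut, was at 57.6 to 110 TPM in D2A1 and 107 to 136 TPM in D2.OR and passed in 3D (log2 0.84, SE 0.14, adjusted p = 0.00117, edgeR). The gamma-secretase subunit Aph1c fell in D2A1 in 3D (log2 -0.92, SE 0.20, adjusted p = 0.048), a call at the threshold that was kept in 6 of 23 alternative fits. It was also among the genes higher in D2.OR in 3D (log2 0.74, SE 0.20, adjusted p = 0.0132), a call lost in 7 of 23 fits. With limma on TPM the direction turned (log2 -0.01 and -0.08 at pseudocounts of 1 and 0.1, adjusted p = 0.988 and 0.863). The call was also lost without the block (0.0578), without replicate 2 (0.123) or 3 (0.0524), without replicate 3 of D2A1 in 3D (0.0558) and without replicate 1 of D2.OR in 3D (0.068). Among 4 tested glycosylation genes, 2 were lower in D2.OR in each culture, against 24.4% of all tested genes in 2D and 26.1% in 3D: Poglut1, which adds O-glucose to the receptor's extracellular repeats (log2 -1.02, SE 0.12, adjusted p = 0.000132 in 2D), and Lfng, which lengthens O-fucose (log2 -0.82, SE 0.25, adjusted p = 0.0238 in 2D; log2 -0.88, SE 0.25, adjusted p = 0.0162 in 3D). The Lfng calls were lost without the replicate block (adjusted p = 0.256 in 2D and 0.32 in 3D). They were also lost without replicate 2 (0.0987 and 0.135) or 3 (0.0818 and 0.0844). The 2D call was also lost without replicate 3 of D2A1 in 2D (0.108) or replicate 1 (0.0932) or 3 (0.0507) of D2.OR in 2D, and the 3D call without replicate 2 (0.0649) or 3 (0.0607) of D2.OR in 3D.

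Of 12 tested ubiquitin ligase and sorting genes, 3 were higher and 4 lower in D2.OR in 2D, where 25.4% and 24.4% of all tested genes were, and 6 were higher and 2 lower in 3D, where 27.7% and 26.1% were. The Neuralized ligases, which act on ligands in the sending cell, went opposite ways. Neurl1a was higher in D2.OR (2D, log2 3.37, SE 0.41, adjusted p = 0.000197, edgeR) at no more than 1.59 TPM, and Neurl1b was lower (3D, log2 -1.49, SE 0.17, adjusted p = 0.000109). Neurl1b was at 2.36, 2.32 and 3.76 TPM in D2A1 in 2D and at 6.48, 5.84 and 6.0 TPM in 3D, and rose there (log2 1.21, SE 0.17, adjusted p = 0.0207), a call lost without the block (0.0513), in the 6 D2A1 libraries alone (0.112), without replicate 2 (0.516) or 3 (0.418) and without replicate 2 or 3 of either D2A1 group (0.0612 to 0.138). In D2.OR it was at 1.3, 1.6 and 1.82 TPM in 2D and at 2.25, 2.37 and 2.64 TPM in 3D, without overlap, and did not pass (log2 0.51, SE 0.17, adjusted p = 0.162). Dtx3l, a Deltex-type ligase, was at 39.2 to 68.0 TPM in D2.OR in 2D and 17.6 to 27.6 TPM in 3D, also without overlap, and did not pass (log2 -1.22, SE 0.36, adjusted p = 0.128). It passed in 4 of 23 alternative fits, with DESeq2 (adjusted p = 0.015), in the 6 D2.OR libraries alone (0.0115), without replicate 1 (0.00654) and without replicate 1 of D2A1 in 3D (0.00351).

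In all, 3 of the 46 genes were called between cultures in D2A1, Nrarp and Neurl1b higher and Aph1c lower, and 1 in D2.OR, against 3.48% and 1.62% of all tested genes. DESeq2 called 19 and 2 of the 46, where it called 24.1% and 7.59% of all genes to which it gave an adjusted p. In edgeR 22 and 7 had an unadjusted p under 0.05, against 31.4% and 17.6% of all tested genes. By both of these measures the share of the 46 was above that of all genes in D2A1 and below it in D2.OR. The gene called in D2.OR was Dlk2, an atypical ligand of the Delta family without the usual receptor-binding domain, which was higher in D2.OR in 3D (log2 2.10, SE 0.30, adjusted p = 0.0171, edgeR). It was at 7.64, 1.69 and 2.21 TPM in 2D and at 27.9, 9.14 and 9.16 TPM in 3D, and replicate 1 held the highest library of each of the 4 groups. The call was lost without the block (adjusted p = 0.416), without replicate 2 (0.511) or 3 (0.235) and without replicate 2 or 3 of either D2.OR group (0.0776 to 0.115). Dlk2 was lower in D2.OR than in D2A1 in both cultures (2D, log2 -2.41, SE 0.30, adjusted p = 0.000222; 3D, log2 -1.47, SE 0.28, adjusted p = 0.00218), the 3D call being lost without the block (0.185). None of the 46 passed the interaction test with edgeR. In edgeR 15 had an unadjusted p under 0.05, against 17.8% of all tested genes, and DESeq2 called 2, against 6.27%. The share of the 46 was thus above that of all genes by the unadjusted p and below it by DESeq2.

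**Figure D5:**
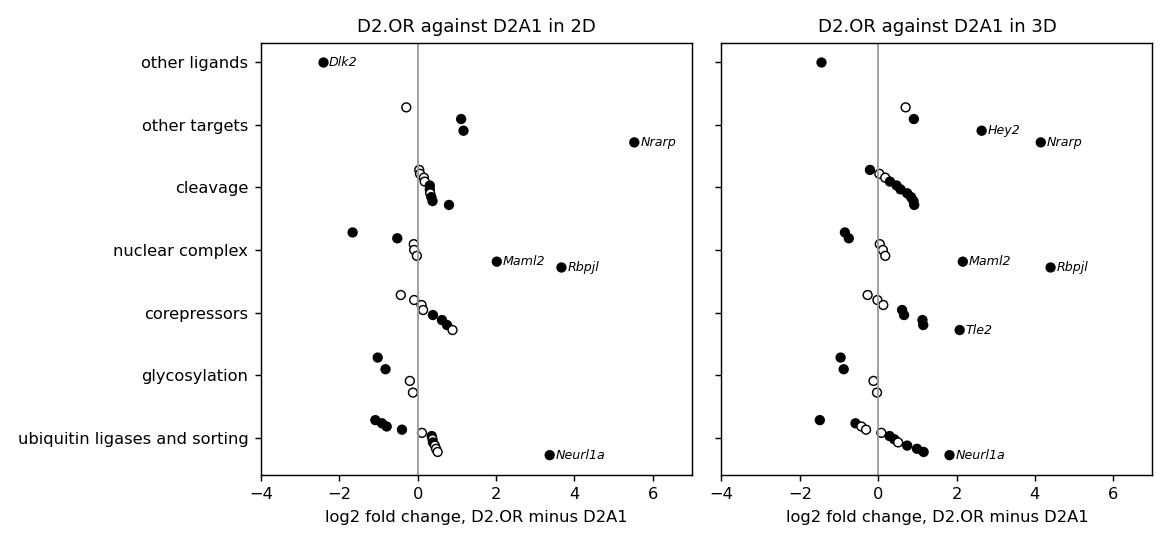
Log2 fold change of D2.OR minus D2A1 for the 46 tested genes of the wider pathway, by role, in 2D (left) and 3D (right); filled points passed an adjusted p of 0.05 in edgeR and genes beyond 1.8 on the log2 scale to either side are named. In 2D 16 points are filled to the right of 0 and 9 to the left, and in 3D 23 and 8; Nrarp is the farthest to the right in 2D (5.53).

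The genes most like the highest receptor, ligand and target of the set were found by Pearson's r of log2 CPM (library-size scaled counts) over the 12 libraries, which fall into 2 clusters, the lines. For Notch4 they were Slc38a1 (r = 0.9973), Fzd8 (0.9962) and Klrb1b (0.9956), with 61 genes above 0.99. For Hes1 they were Ripor2 (r = 0.9968), Il3ra (0.9960) and Mfsd4b4 (0.9953), with 42 genes above 0.99, and for Jag1 they were Pdk4 (r = 0.9887), Usp38 (0.9874) and Ahrr (0.9862), with no gene above 0.99. With the points in 2 clusters, these values describe the split of the lines.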

How the data were processed

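RNA was extracted from cell pellets and sequenced in 12 libraries. Per the labels and the study's methods, the authors checked reads with FastQC 0.11.4, trimmed them with Trimmomatic 0.32, aligned them with STAR 2.5.3 (GRCm38) and quantified the genes of GENCODE M15 with RSEM 1.3.0; the strand setting is not given in the sources used here. The deposited files hold an expected count per gene (10.68% to 11.84% of values were not whole), a TPM value and transcript lengths; the deposited FPKM values were not used. Expected counts were rounded. Main test: edgeR 4.0.16 (R 4.3.3), trimmed-mean scaling, low-count filter (16823 of 52550 genes), groups and replicate block in 1 quasi-likelihood fit of all 12 libraries, Benjamini-Hochberg adjusted p under 0.05; contrasts of lines in each culture, of cultures in each line, and their interaction. The code was tested on simulated data. The block follows the shared batch: same-numbered libraries deviated together, with correlations from 0.08 to 0.51 (median 0.27, 18 pairs). The biological coefficient of variation was 21.2%. Alternatives were DESeq2 1.42.0, limma 3.58.1 on log2(TPM + 1) and log2(TPM + 0.1), other size factors, no filter, no block, only the 6 libraries compared, and leaving out each replicate or library; Notch4 TPM at full transcript length was added after seeing the data. Transcripts of Notch4 were taken from GENCODE M21, in which all 12 keep the same version. Other genes overlapping the members were at or below 1.16 TPM. All members are named, with the 3 pathway genes of smallest p in each contrast; Hes7, Rbpj, Rbpjl, Maml2, Maml3, Tle2, Adam10, Lfng and the untested targets were named after their values were seen. The members, gene lists and tests were chosen with earlier results of these data known.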

Additional observations from a re-analysis of the deposited data

How the results depend on the processing

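The differences between the lines were stable: 7 members were called in 2D in every alternative fit, and 8 or, where Jag2 was lost, 7 in 3D. Calls between cultures were not. Without the replicate block, 1 member instead of 2 was called in D2A1 and 0 in D2.OR, with 52 and 20 genes overall against 586 and 273, and 0 against 4 for the interaction. With library totals alone 1 member was called in D2A1. With only the 6 libraries compared the count was 0 in D2A1 and 2 in D2.OR (15 and 809 genes). With DESeq2 it was 3, 1 and, for the interaction, 1 (3589, 1227 and 953 genes), and with no filter the interaction called 1 (96 genes; 1117 and 415 for the cultures). limma called 13 and 9 genes for the interaction and, with the pseudocount of 0.1, 1135 in D2A1. Leaving out a replicate or library gave 0 to 6 members in D2A1, 0 to 2 in D2.OR and 0 to 2 for the interaction (0 to 6120, 0 to 1412 and 0 to 2999 genes), and 4227 to 9062 genes in 2D and 5273 to 10298 in 3D between the lines; gene calls were fewest without replicate 2 or 3. Library totals moved the median log2 difference of all genes from -0.003 to -0.167 in 2D and from 0.001 to -0.1 in 3D, and in 2D turned 4275 higher and 4103 lower calls into 3394 and 5399 (limma, 3252 and 4684, or 3460 and 4817); between cultures, library totals gave 160 and 73 in D2.OR against 141 and 132, and limma 195 and 566 in D2A1 against 230 and 356. The cause was not tested.

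For the 10 members, the directions that reversed belonged to log2 differences that had not passed; of the wider pathway's calls, that of Aph1c between the lines in 3D turned with limma. Dll1 in D2.OR between cultures was 0.03 without the block and 0.04 in the 6 libraries alone. Notch4 in D2.OR was 0.07 with library totals and 0.08 with limma at either pseudocount, and the Notch1 interaction was 0.24 with limma at 0.1. Leaving out a replicate or library gave -0.95 to 0.57 for Dll1 between the lines in 2D; in D2A1 between cultures -0.51 to 0.17 for Jag1, -0.18 to 0.3 for Jag2 and -1.69 to 0.55 for Dll4; in D2.OR -0.79 to 0.34 for Dll1, -0.6 to 0.12 for Notch3, -0.23 to 0.25 for Notch4 and -0.55 to 0.28 for Hey1; and for the interaction -0.61 to 0.85 for Notch1, -0.36 to 1.17 for Dll1, -1.21 to 0.81 for Dll4 and -0.19 to 0.2 for Hes1. At the full transcript length the mean of Notch4 was 161 and 163 TPM in D2.OR in 2D and 3D instead of 807 and 850, and 0.907 instead of 1.41 in D2A1 in 3D. Depth limits Dll4, Notch1 and Hey1 in D2A1, which rest on 0 to 185 counts.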
